A study of Mus musculus with 12 samples.

Results

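The insulin-like growth factor Igf1, its receptors and its binding proteins are followed here as 10 genes, taken by name from the 52670 gene symbols in the deposited tables. They are the ligand Igf1, the receptors Igf1r, Igf2r and Insr, and the binding proteins Igfbp2, Igfbp3, Igfbp4, Igfbp5, Igfbp6 and Igfbp7. All 10 passed the filter on low counts, which left 17432 genes to test. RNA was sequenced from epithelial cells of the mouse circumvallate papilla, a taste papilla of the posterior tongue. Every group came from adults of 11 to 12 weeks with the genotype Sox2GFP, in which green fluorescent protein (GFP) reports on the transcription factor Sox2. The brightness of GFP defined 4 sorted groups (Low, MedLow, HiMed and High) of 3 libraries each, every replicate pooled 7 to 13 mice, and cells without GFP were discarded, so no GFP-negative group exists. The labels say neither how the reporter allele is built nor how many cells each library holds. The p-values measure the spread between these pools, and bins are treated as unpaired unless a replicate block is named.

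Igf1 is a secreted growth factor that signals through the tyrosine kinase receptor Igf1r. Insr binds insulin and can pair with Igf1r in hybrid receptors, while Igf2r has no kinase, takes up Igf2 and carries lysosomal enzymes. The Igfbp proteins are secreted and hold Igf1 and Igf2 outside the cell, and proteases such as Pappa release the ligand by cutting some of them. In skin and other epithelia this system is known for its part in growth and in exchange between epithelium and the tissue beneath it.

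Library totals were 25.7 to 55.6 M estimated counts. Sox2 averaged 70.3 ± 6.17 CPM (counts scaled by library total) in Low, 98.0 ± 1.20 in MedLow, 171 ± 2.64 in HiMed, with 373 ± 12.8 in High, in the order of the sort. Here and below, ± is an SD over n = 3 libraries. The epithelial markers Epcam, Cdh1, Krt5, Krt14 and Krt8 were above 0 in all bins. Between High and Low they went different ways: Epcam (581 CPM in High, 178 in Low), Cdh1 (923 and 732) and Krt8 (1080 and 259) were called higher, and the basal keratins Krt5 (3960 and 13800) and Krt14 (401 and 7400) lower. Their sum, mostly keratin, was 6460 to 7460 CPM in High and 22000 to 23000 CPM in Low. Tested for any difference among bins with the quasi-likelihood test of edgeR, adjusted by Benjamini-Hochberg over all genes, all 10 genes were called, beside 41.8% of all genes tested. Every adjusted p below comes from that fit, a call needs an adjusted p below 0.05, and the 6 comparisons between bins share libraries. In sorted bulk RNA, fewer cells of a type and less RNA per cell cannot be told apart.

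The upstream sequences of Igf1, Igfbp2, Igfbp3 and Igfbp4 are shown because these genes follow the patterns the results turn on: Igf1 almost confined to High, Igfbp2 and Igfbp3 lower at every step of brightness, and Igfbp4 highest in HiMed. Each runs 5′ to 3′ on the gene's strand over the 250 bases before the start, from RefSeq on GRCm38.p6, an older build than the mm39 that the submitters' processing notes name. Capitals mark matches, on either strand, to any of 5 motifs. TATAAA is a TATA box. GGGCGG is a GC box. Sox factors are known to bind ACAAAG. They are also known to bind ACAATG. A FoxO site was searched with GTAAACA as its core. The windows lie at chr10:87860861-87861110 (+) for Igf1, chr1:72824230-72824479 (+) for Igfbp2, chr11:7213924-7214173 (-) for Igfbp3 and chr11:99040994-99041243 (+) for Igfbp4.
Igf1: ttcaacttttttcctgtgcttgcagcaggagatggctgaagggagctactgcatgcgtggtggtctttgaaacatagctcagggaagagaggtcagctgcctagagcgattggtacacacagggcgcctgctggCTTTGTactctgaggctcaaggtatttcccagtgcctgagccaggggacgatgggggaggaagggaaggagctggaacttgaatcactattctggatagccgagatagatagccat
Igfbp2: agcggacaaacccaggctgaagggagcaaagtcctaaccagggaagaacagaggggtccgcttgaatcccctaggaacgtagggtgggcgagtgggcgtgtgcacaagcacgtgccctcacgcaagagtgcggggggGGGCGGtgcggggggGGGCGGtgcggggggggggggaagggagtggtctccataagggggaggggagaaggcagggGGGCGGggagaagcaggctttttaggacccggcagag
Igfbp3: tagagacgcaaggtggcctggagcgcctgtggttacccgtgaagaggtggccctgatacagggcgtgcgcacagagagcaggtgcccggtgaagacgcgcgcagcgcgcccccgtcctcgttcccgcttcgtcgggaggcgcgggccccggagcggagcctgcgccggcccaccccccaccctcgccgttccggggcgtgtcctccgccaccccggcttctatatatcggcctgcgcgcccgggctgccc
Igfbp4: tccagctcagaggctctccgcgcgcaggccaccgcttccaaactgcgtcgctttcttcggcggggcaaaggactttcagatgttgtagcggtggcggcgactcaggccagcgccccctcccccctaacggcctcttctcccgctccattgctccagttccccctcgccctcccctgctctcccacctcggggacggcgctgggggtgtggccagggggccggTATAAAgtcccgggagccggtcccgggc
The Igf1 window held a single match, CTTTGT, which is ACAAAG read on the other strand, at bases 116 to 111 before the start. The Igfbp2 window held GGGCGG 3 times, the Igfbp3 window none of the motifs, and the Igfbp4 window TATAAA at bases 28 to 23 before the start. Windows of this length hold ACAAAG in 16.5%, ACAATG in 10.7%, GGGCGG in 32.7%, TATAAA in 12.4% and GTAAACA in 3.17% of 32851 RefSeq promoter entries. These motifs do not overlap one another, and a match is a description of letters, not of a bound factor. Which transcript start these cells used was not examined. RefSeq entries were found for 9 of the 10 genes, in 10 windows, Igfbp2 having a further window downstream of the printed window that held no match. The bases just after the printed Igfbp2 window were not found whole in a GENCODE transcript of Igfbp2. Those after its further window were found, as were those after the Igf1, Igfbp3 and Igfbp4 windows in transcripts of these genes.

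Igf1 was nearly confined to the brightest bin. It had 0, 0 and 0.208 CPM in Low, 0 in all 3 MedLow libraries, 0, 0.465 and 0.67 CPM in HiMed, and 17.5, 18.7 and 34.2 CPM in High. Every High library thus lay above every other library, while the 3 dimmer bins overlapped at or near 0. Of all Igf1 counts, 0.223% (8, exact Poisson 95% interval 3.45 to 15.8) came from a single Low library, 1.51% (54, interval 40.6 to 70.5) from HiMed and 98.3% (3524) from High, and these intervals cover counting error only.

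Igf1 rose in High against every other bin. The log2 fold change over HiMed was 5.92 (SE 0.93, adjusted p = 0.00083) and over Low 8.24 (SE 1.11, adjusted p = 9.5e-05). The value over Low rests on the 8 counts of Low replicate 3, without which Low held no Igf1 count and a fold could not be given. On log2(TPM + 1), which understates changes of low values, the values were 3.79 over HiMed and 4.53 over Low. Against MedLow, with 0 counts in all 3 libraries, High was called higher (adjusted p = 5.1e-05). The mean of High was 924-fold above a floor of 3 counts over the bin, or 0.0254 CPM. That floor covers counting error only, so a fold over it leaves out the spread between libraries. HiMed was also called above MedLow (adjusted p = 0.044), its mean 14.9-fold above the floor, but HiMed replicate 1 was at 0 like MedLow. That call was lost without any of 7 libraries (each of the MedLow libraries, HiMed 2 or 3, High 1 or 2; adjusted p 0.0534 to 0.142), with DESeq2 (0.0526), limma-voom (0.472) and TPM + 1 (0.197). HiMed against Low (adjusted p = 0.19) and MedLow against Low (0.46) were not called, so the order below HiMed is not settled by these libraries, and without HiMed replicate 1 HiMed was called above Low (0.0335).

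In TPM, a level scaled for transcript length and to a fixed total per library, Igf1 stood at 23.7 ± 10.1 in High, beside 24.2 ± 4.45 TPM for its receptor Igf1r in the same bin. In Low, Igf1r was at 21.7 ± 3.90 TPM and Igf1 at 0.0152 ± 0.0263 TPM. Ligand and receptor transcripts were at like levels in High, and far apart in Low. The TPM value per CPM was 1.02, 0.954 and 1.03 in the High libraries, 2.63 and 1.81 in HiMed replicates 2 and 3, and 0.219 in Low replicate 3. This ratio depends on the effective transcript length used in the quantification, so the few reads outside High were given other lengths than those in High.

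**Figure D1:**
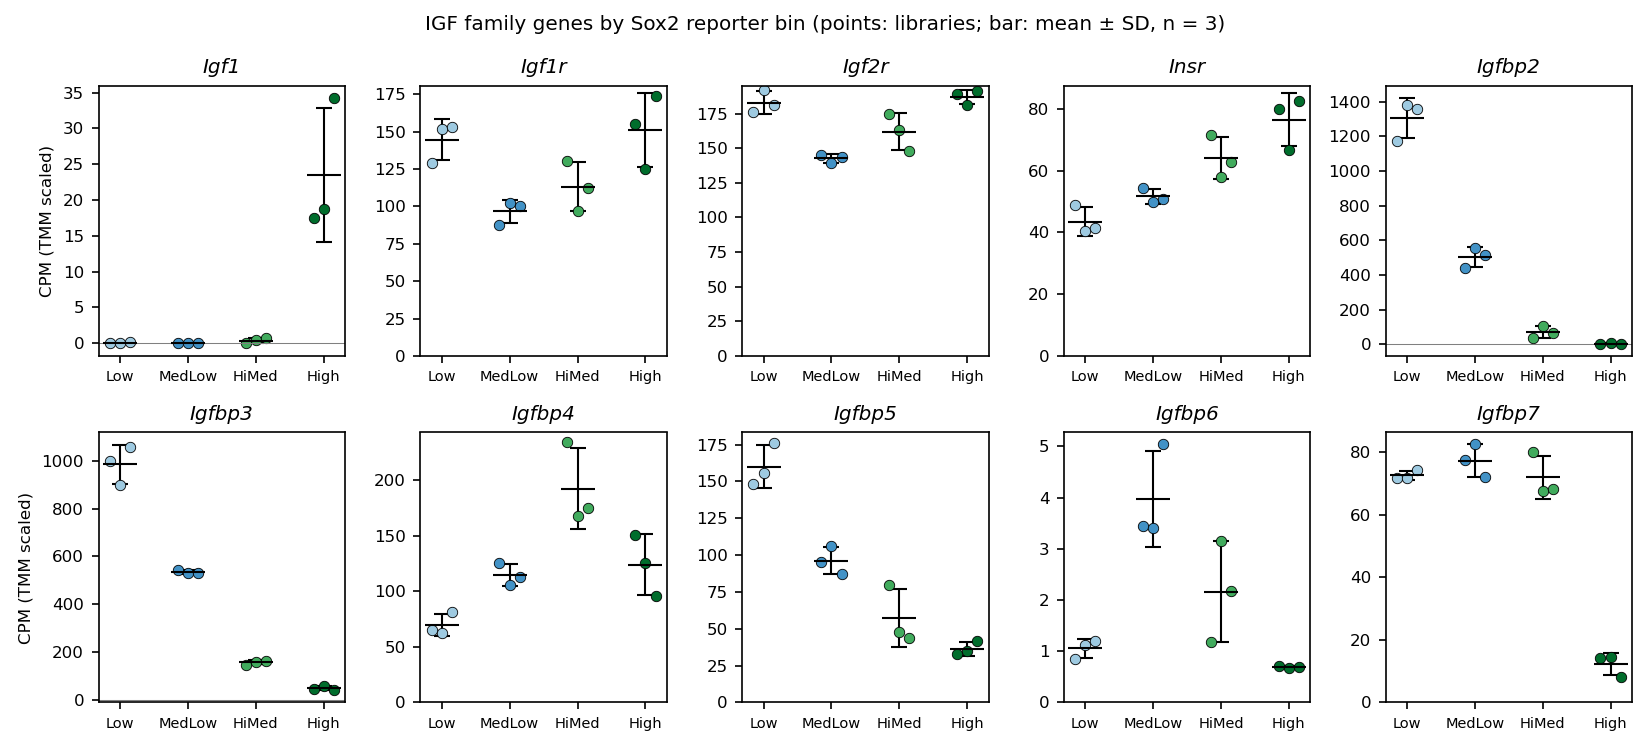
Level of each of the 10 genes in CPM (vertical axis, linear, its own scale in each panel) in the 4 bins from Low to High. Points are libraries, bars are mean ± SD over 3 libraries. Igf1 sits at 17.5 to 34.2 CPM in High and at or near 0 elsewhere, while Igfbp2 and Igfbp3 step down at each bin.

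Markers of other cell types were read beside Igf1, because mesenchymal cells and macrophages are known Igf1 sources in many tissues. The summed level of 9 fibroblast markers was 123 to 217 CPM in High and 657 to 703 CPM in Low, a fall carried by Dcn (6.95 ± 4.20 CPM in High, 608 ± 20.8 CPM in Low). Of the 4 fibroblast markers tested, Fbln1 and Pdgfra were called higher in High, Dcn lower and Col1a1 neither. Pdgfra, a receptor of mesenchymal cells, had 5.99 ± 2.30 CPM in High and 2.67 ± 0.833 CPM in Low (log2 1.16, SE 0.43, adjusted p = 0.044), a call lost under 11 other settings, the replicate block among them (adjusted p up to 0.197 over all settings). Lum was at 0 in all 4 bins, and Pdgfrb and Postn were at 0 in High. The 7 leukocyte markers summed to 102 to 308 CPM in High and 31 to 48.7 CPM in Low, of which Lyz2 made up 172 ± 113 CPM in High and 32.7 ± 8.49 CPM in Low. Of the 5 leukocyte markers tested, Lyz2 and Itgam were called higher in High than in Low and 2 lower. Itgam, an integrin of myeloid cells, had 3.09 ± 1.16 CPM in High and 0.799 ± 0.447 CPM in Low (log2 1.95, SE 0.66, adjusted p = 0.03), a call lost under 4 other settings. Csf1r, Adgre1 and Cd3e had 0 counts in High, and Ptprc had 0.0797 ± 0.138 CPM. High replicate 3 was the highest of its bin in Igf1 and also in Lyz2, at 303 CPM beside 100 and 114 CPM in High replicates 1 and 2. In High replicate 3 the levels of Epcam (697 CPM), Krt8 (1470), Vwf (78.9), Entpd2 (277) and Kcnj1 (80.7) were also the highest of the bin. Those of Oxtr (9.03 CPM), Fbln1 (115) and Tek (3.99) were the lowest of the bin. The 6 endothelial markers summed to 46.4 to 83.9 CPM in High and 13.7 to 24.6 CPM in Low. Vwf had 56.5 ± 20.6 CPM in High and 13.1 ± 5.23 CPM in Low, and Tek, which was not called, had 6.34 ± 2.41 and 4.05 ± 1.21 CPM in the same bins. Kdr and Emcn were at 0 in High, where Cdh5 had 0.176 ± 0.155 CPM. The part of these fibroblast, leukocyte and endothelial markers in the Igf1 pattern was not tested. The 4 type I taste cell markers summed to 63 to 74 CPM in Low, 33.3 to 37.9 in MedLow, 12.6 to 18.7 in HiMed but 204 to 367 in High, with 3 of them called higher and 1 lower in High against Low. Entpd2 stood at 205 ± 64.1 CPM in High and 19.9 ± 3.68 CPM in Low. Kcnj1, at 0.0519, 0.0614, 2.17 and 50.8 CPM in Low, MedLow, HiMed and High, and Oxtr, at 0.0549, 0, 0.94 and 13.2 CPM, were nearly confined to High as Igf1 was. Slc1a3 went the other way, with 0.0725 ± 0.126 CPM in High and 49.7 ± 3.89 CPM in Low, where it made up most of the sum. The type III taste cell marker Otop1 was also far highest in High, at 7.28, 4.66, 10.4 and 122 CPM from Low to High. Of the 5 type III markers, 1 was called higher and 4 lower in High against Low. Of the 5 type II taste cell markers, 0 were called higher and 3 lower, beside 20.1% and 21.2% of all genes. The part of these taste cell markers in the Igf1 pattern was not tested either.

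The 3 receptors changed far less than the ligand. Igf1r, the kinase receptor of Igf1, had 129, 152 and 153 CPM in Low, 87.8, 102 and 100 in MedLow, 130, 97.2 and 112 in HiMed, and 155, 125 and 174 in High. High and Low overlapped, MedLow lay below both, and HiMed overlapped each of the other bins. High exceeded MedLow by 0.64 on the log2 scale (SE 0.13, adjusted p = 0.0015) and MedLow fell by 0.58 against Low (SE 0.13, adjusted p = 0.017). High also exceeded HiMed, by 0.42 (SE 0.13, adjusted p = 0.034). Between High and Low the difference was 0.06 (95% interval -0.22 to 0.34, adjusted p = 0.75). HiMed against Low (-0.36, adjusted p = 0.067) and against MedLow (0.22, adjusted p = 0.33) were not called. Igf1r was thus highest in the brightest and dimmest bins, and those ends did not differ beyond their spread. Of these calls, High over HiMed was lost without HiMed 2, HiMed 3, High 1 or High 3 (adjusted p 0.0885 to 0.148) and MedLow under Low without Low 2, Low 3, MedLow 1 or MedLow 3 (0.051 to 0.0875), while HiMed was called under Low without HiMed 1, High 2 or High 3 (0.0267 to 0.0486).

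Igf2r, the uptake receptor for Igf2, had the same order of bins with a narrower range. It stood at 176, 192 and 181 CPM in Low, 145, 139 and 144 in MedLow, 175, 163 and 148 in HiMed, and 189, 181 and 191 in High. All MedLow libraries lay below all others, and High and Low overlapped. High exceeded MedLow by 0.38 (log2, SE 0.08, adjusted p = 0.0011) and MedLow fell by 0.35 against Low (SE 0.08, adjusted p = 0.012). The second of these calls was lost without Low 2 or MedLow 2 (adjusted p 0.0515 to 0.0583). High differed from Low by 0.03 (95% interval -0.13 to 0.19, adjusted p = 0.79), and High from HiMed by 0.20 (adjusted p = 0.069), a difference called without HiMed 1 (0.0311) and with DESeq2. Airn, a transcript antisense to Igf2r, had 1711 counts over the 12 libraries, and whether the counting used strand is not given in the sources used here.

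Insr, the insulin receptor, was the receptor that followed brightness. Its levels were 48.8, 40.3 and 41.3 CPM in Low, 54.4, 49.7 and 50.8 in MedLow, 71.4, 58.0 and 62.9 in HiMed, and 80.1, 66.7 and 82.7 in High. The bins did not overlap except HiMed with High. Insr rose in High against Low by 0.81 (log2, SE 0.11, adjusted p = 4.6e-05), in High against MedLow by 0.57 (SE 0.11, adjusted p = 0.001) and in HiMed against Low by 0.56 (SE 0.11, adjusted p = 0.0021). None of the 3 steps between neighbouring bins was called: 0.25 for MedLow over Low (adjusted p = 0.27), 0.31 for HiMed over MedLow (0.081) and 0.25 for High over HiMed (0.12). With the replicate number as a block, HiMed over MedLow (adjusted p = 0.0224) and High over HiMed (0.0381) were called, and High over HiMed was also called without High 2 (0.0436). In TPM the order was less clean, with MedLow replicate 3 at 17.2 beside 9.07 and 10.8 in MedLow replicates 1 and 2, and High over MedLow was not called on log2(TPM + 1) (adjusted p = 0.15). Per length, Igf1r stood at 1.32 to 1.62 times the level of Insr in High and at 1.82 to 3.62 times in Low. In the middle bins it stood at 0.801 to 1.56 times in MedLow and at 1 to 1.29 times in HiMed.

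The 6 binding proteins followed different patterns. Igfbp2, which binds Igf2 more tightly than Igf1, had 1170, 1380 and 1360 CPM in Low, 442, 555 and 513 in MedLow, 37.8, 108 and 66.6 in HiMed, and 4.5, 5.71 and 5.1 in High. No library of one bin reached into the next. The fall to 5.11 ± 0.605 CPM in High, against 1300 ± 116 CPM in Low, was 255-fold (log2 -7.99, SE 0.35, adjusted p = 1.9e-09). Each step toward brightness was called and larger than the last: -1.37 for MedLow against Low (adjusted p = 0.0054), -2.83 for HiMed against MedLow (2.2e-05) and -3.79 for High against HiMed (1.9e-06).

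Igfbp3, the main Igf carrier in serum, fell alongside. It had 999, 898 and 1060 CPM in Low, 543, 531 and 530 in MedLow, 147, 158 and 164 in HiMed, and 45.9, 58.5 and 42.2 in High. Again no bins overlapped. High was 20.2-fold below Low (log2 -4.33, SE 0.12, adjusted p = 1.1e-10), with steps of -0.88 (adjusted p = 0.00023), -1.78 (7.3e-07) and -1.68 (6.7e-07) from Low through MedLow and HiMed to High. No alternative setting or left-out library changed any call of Igfbp2 or Igfbp3. Over the 12 libraries, which share the bins, the log2 levels of Igfbp2 and Igfbp3 correlated at r = 0.992.

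Igfbp5, a binding protein that attaches to extracellular matrix, fell in smaller and less certain steps. Its values were 148, 156 and 176 CPM in Low, 95.6, 106 and 87.2 in MedLow, 79.8, 48.0 and 43.5 in HiMed, and 32.6, 35.1 and 41.8 in High. The bins did not overlap, although HiMed replicate 1 came close to MedLow. High was 4.38-fold below Low (log2 -2.13, SE 0.19, adjusted p = 1.1e-06). The steps of -0.74 (MedLow against Low, adjusted p = 0.029), -0.75 (HiMed against MedLow, 0.016) and -0.64 (High against HiMed, 0.024) were called but fragile. The first was lost without any of the 6 Low and MedLow libraries (adjusted p 0.0535 to 0.128), the second without MedLow 2, HiMed 2 or HiMed 3 (0.0651 to 0.0699), and the last without HiMed 1, High 1 or High 2 (0.0624 to 0.0863).

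Igfbp7, a secreted protein with low affinity for Igfs, was level across the 3 dimmer bins and low in High. It had 71.8, 71.7 and 74.3 CPM in Low, 77.3, 82.5 and 72.0 in MedLow, 79.9, 67.5 and 68.2 in HiMed, and 14.2, 14.6 and 8.09 in High. The 3 dimmer bins overlapped one another and all lay above High. The log2 fold change of High was -2.56 against Low (SE 0.18, adjusted p = 9.1e-08), -2.65 against MedLow (1e-07) and -2.55 against HiMed (7.8e-07). Between the dimmer bins the differences were -0.02 for HiMed against Low (95% interval -0.37 to 0.34, adjusted p = 0.97), 0.09 for MedLow against Low (-0.26 to 0.44, 0.89) and -0.11 for HiMed against MedLow (-0.46 to 0.25, 0.77). The sign of HiMed against Low turned under other scalings and left-out libraries, and that of HiMed against MedLow turned on TPM. The span of Igfbp7 overlaps that of Polr2b on the opposite strand, which had 35562 counts. Whether their transcripts share sequence was not examined, and only reads from shared sequence would need strand to be told apart.

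Igfbp4, an inhibitory binding protein and the best known substrate of the protease Pappa, peaked in HiMed. Its levels were 65.4, 62.1 and 81.1 CPM in Low, 125, 106 and 113 in MedLow, 234, 168 and 175 in HiMed, and 151, 125 and 95.9 in High. HiMed lay above all other libraries, Low below all others, and High straddled MedLow. Igfbp4 rose in HiMed against Low by 1.47 (log2, SE 0.17, adjusted p = 2.6e-05), in HiMed against MedLow by 0.75 (0.0087) and in High against Low by 0.83 (SE 0.17, 0.0012). It rose in MedLow against Low by 0.72 (adjusted p = 0.019), a call lost without Low 1, Low 2, MedLow 1 or MedLow 3 (0.0534 to 0.0839). High fell by 0.63 against HiMed (SE 0.17, adjusted p = 0.014), a call lost without HiMed 1 or High 3 (0.059 to 0.0609) and on log2(TPM + 1) (0.41). High and MedLow differed by 0.11 (95% interval -0.24 to 0.47, adjusted p = 0.65), with a sign that turned without High replicate 1.

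Igfbp6, which prefers Igf2, was the least abundant of the 6 and highest in MedLow. It had 0.848, 1.13 and 1.19 CPM in Low, 3.45, 3.41 and 5.05 in MedLow, 1.17, 3.15 and 2.17 in HiMed, and 0.72, 0.671 and 0.697 in High. HiMed overlapped Low and the 2 ends were close, with High below Low in every library. High was called below MedLow by 2.51 (log2, SE 0.47, adjusted p = 0.00079) and below HiMed by 1.63 (0.021), and MedLow above Low by 1.91 (0.024). The call of MedLow over Low was lost without any of the 6 libraries of those bins (adjusted p 0.0596 to 0.134), and that of High under HiMed without HiMed 2, HiMed 3, High 2 or High 3 (0.0521 to 0.108) and with limma-voom. High against Low (-0.60, adjusted p = 0.33), HiMed against Low (1.03, 0.13, but 0.0416 without HiMed 1) and HiMed against MedLow (-0.88, 0.24) were not called.

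**Figure D2:**
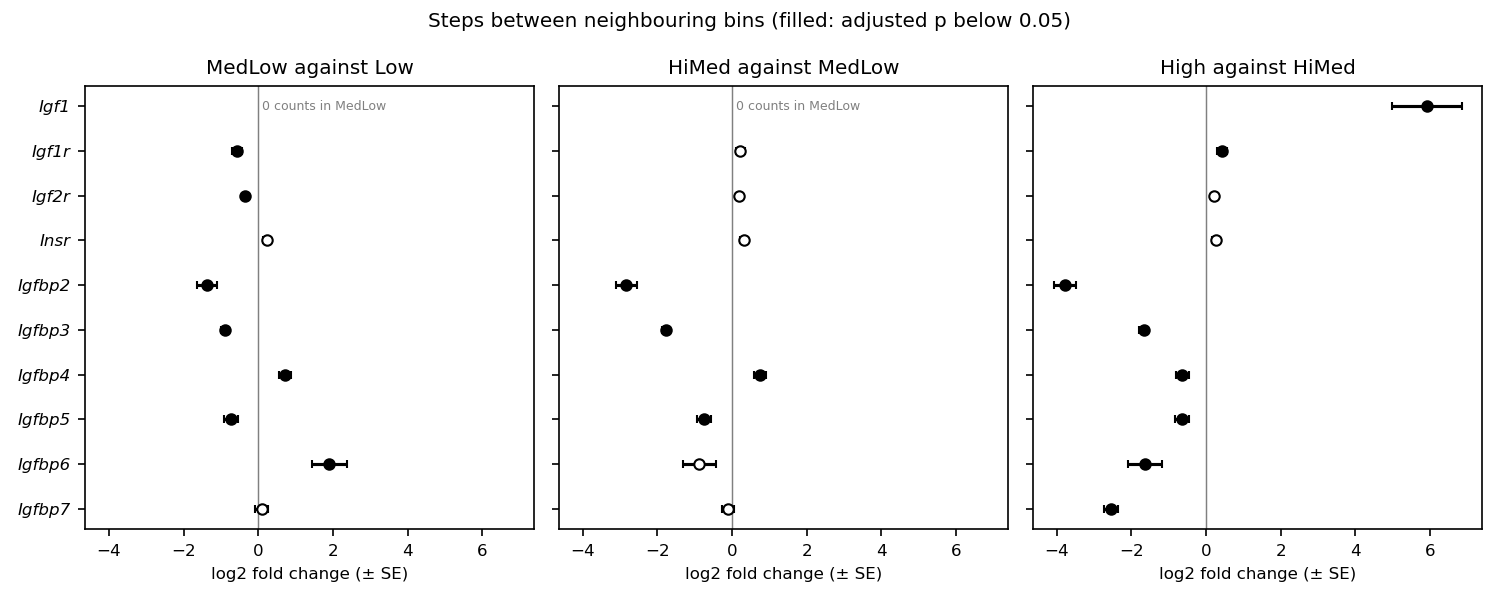
Log2 fold change (horizontal axis, ± SE) of each gene for each step between neighbouring bins, the brighter bin over the dimmer, from the edgeR fit to all 12 libraries. Filled points have an adjusted p below 0.05. Igf1 is drawn only for High against HiMed, as it had 0 counts in MedLow. Igfbp2 and Igfbp3 fall at every step, and all 6 binding proteins lie below 0 in High against HiMed.

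Counted by comparison, High against Low called 3 of the 10 genes higher (20.1% of all genes tested) and 4 lower (21.2%), 7 in all beside 41.4%. The median log2 fold change was -0.28 for the 10 genes and -0.007 for all genes tested. In High against MedLow 4 were higher (18.2% of all genes) and 5 lower (19.8%), 9 in all beside 38%. For High against HiMed it was 2 higher (10.6%) and 6 lower (11.6%), 8 in all beside 22.1%, the 6 being the whole set of binding proteins. HiMed against Low gave 2 higher (12.4%) and 3 lower (11.3%), 5 in all beside 23.6%. The step of HiMed against MedLow gave 2 higher (7.38%) and 3 lower (6.12%), 5 in all beside 13.5%, and MedLow against Low 2 higher (4.08%) and 5 lower (2.52%), 7 in all beside 6.6%. On TPM the calls in these last comparisons numbered 3 each. Libraries of the bins compared did not overlap for 8 of the 10 genes in High against Low (52.5% of all genes), for 9 in High against MedLow (51.2%) and for 8 in High against HiMed (35.3%). The same held for 6 genes in HiMed against Low (38.6%), for 7 in HiMed against MedLow (32.8%) and for 8 in MedLow against Low (27.4%).

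Added together per length, the 6 Igfbp transcripts made up 2660 ± 203 TPM in Low, 1270 ± 72.8 in MedLow, 510 ± 21.7 in HiMed, with 211 ± 40.8 in High. The bins did not overlap in this sum. Its makeup turned over as it shrank. Igfbp2 held 66.1 ± 3.19% of the sum in Low, 52.1 ± 2.61% in MedLow, 19.7 ± 8.94% in HiMed, with 3.93 ± 1.10% in High. Igfbp4 held 2.07 ± 0.285%, 7.06 ± 0.339%, 29.8 ± 5.56% and 60.5 ± 6.31% in the same order of bins, and was the most abundant Igfbp transcript in every High library. The share of Igfbp3 moved less than those of Igfbp2 and Igfbp4, at 25.8 ± 2.80% in Low, 28.9 ± 1.92% in MedLow, 22.8 ± 1.95% in HiMed, with 19 ± 3.65% in High. Its High libraries (15 to 22.2%) lay below those of Low (22.8 to 28.2%) and MedLow (27 to 30.8%). Igfbp7 held 4.43 ± 0.184%, 9.56 ± 0.655%, 23.9 ± 2.56% and 10.4 ± 1.81% from Low to High. Per length, Igfbp2 stood at 0.0403 to 0.0833 times the level of Igfbp4 in High and at 28.3 to 39.8 times in Low. These shares carry no test.

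**Figure D3:**
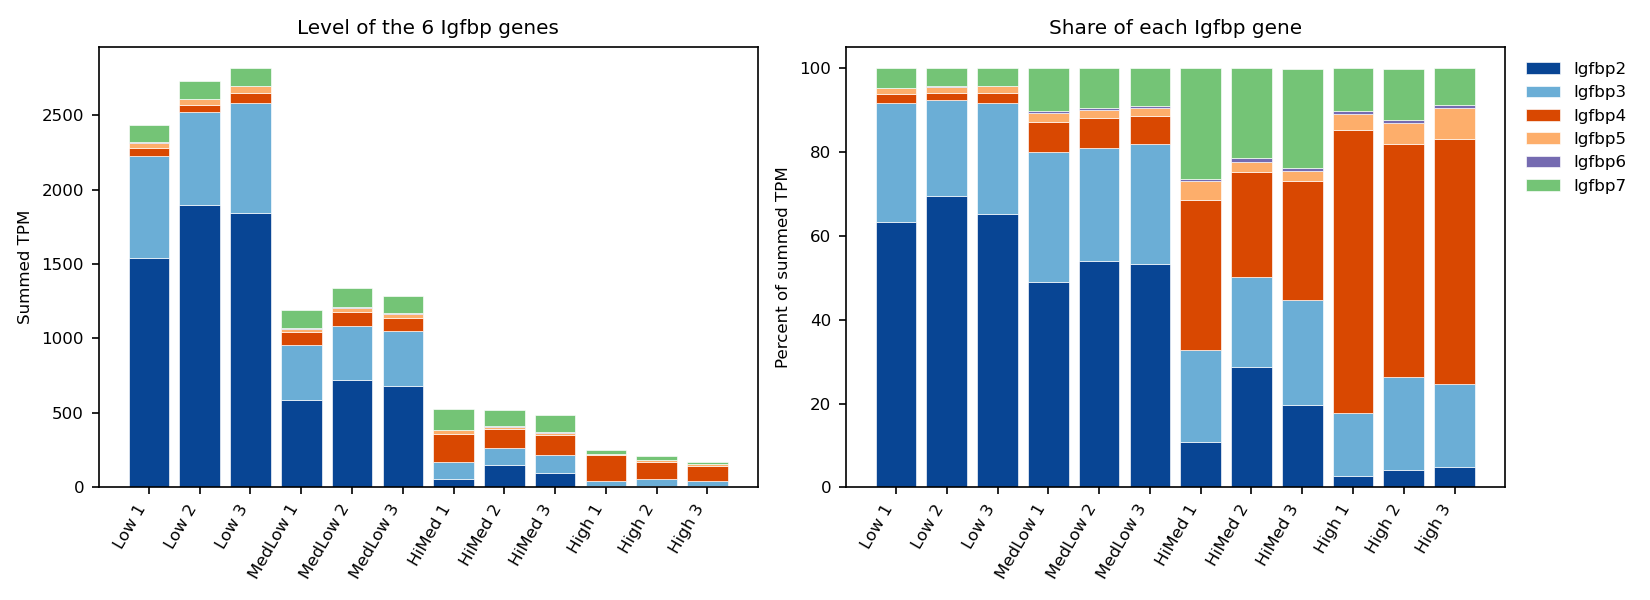
Summed level of the 6 Igfbp genes in TPM (left) and the percent of that sum held by each gene (right), with a stacked bar per library in the order Low to High. The sum averages 2660 TPM in Low, 1270 in MedLow, 510 in HiMed but 211 in High, where Igfbp4 holds 60.5% of it.

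Some other markers moved with the falling binding proteins. Dcn, a fibroblast proteoglycan, stood at 6.95 ± 4.20 CPM in High and 608 ± 20.8 CPM in Low, while the other fibroblast marker of the list with a high level, Fbln1, ran the other way (168 ± 46.6 CPM in High, 64.8 ± 7.11 CPM in Low). Col1a1 was at 0.520 ± 0.120 CPM in High and 0.980 ± 0.656 CPM in Low and was not called. The 5 pericyte and smooth muscle markers summed to 4.28 to 9.5 CPM in High and 155 to 164 CPM in Low, mostly from Cspg4. Of the 4 tested, 2 were called lower in High against Low and 2 were not called, beside 21.2% of all genes called lower. Myh11 had 0.347 ± 0.485 CPM in High and 0.279 ± 0.239 CPM in Low, and Rgs5 was at 0 in both bins. The 5 von Ebner gland markers, of a salivary gland that opens into the papilla, summed to 0.495 to 92.2 CPM in High and 710 to 2040 CPM in Low, with Lcn11 at 0 in all bins. The part of these markers in the Igfbp results was not tested.

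Beyond the 10 genes, 52 further genes of the pathway were read from a list made with earlier results of these data known. Of these, 43 were tested, and High against Low called 12 higher and 8 lower with a median log2 fold change of -0.05, beside 41.4% of all genes called. Ins1, Ins2, Igfbp1, Igfbpl1, Pappa2, Irs3, Irs4, Igf2bp1 and Igf2bp3 had too few counts to be tested. Igf2, the only other ligand tested, was low throughout and fell to 0.437 ± 0.0612 CPM in High, against 4.75 ± 1.06 CPM in Low (log2 -3.43, SE 0.50, adjusted p = 8.1e-05). Per length, Igf2 had 0.303, 0.246 and 0.299 TPM in the High libraries, where Igf1 had at least 17.8 TPM, and Igf2os lies antisense to Igf2. The only other carrier tested, Igfals, which joins Igfbp3 in the serum complex, had 2.53 ± 0.408 CPM in High and 3.26 ± 1.20 CPM in Low and was not called.

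The proteases that cut binding proteins, and their inhibitors, were all called between High and Low, 1 higher and 3 lower of 4 tested, beside 20.1% of all genes called higher and 21.2% called lower. Pappa, which cleaves Igfbp4 and Igfbp5, had 233, 220 and 183 CPM in Low, 140, 157 and 116 in MedLow, 32.5, 37.8 and 31.1 in HiMed, and 3.04, 5.62 and 2.11 in High. Its bins did not overlap, and High lay 5.87 below Low on the log2 scale (SE 0.29, adjusted p = 4.5e-09). In HiMed, the bin where Igfbp4 was highest, Pappa averaged 33.8 ± 3.53 CPM, against 138 ± 20.3 CPM in MedLow (log2 -2.03, SE 0.24, adjusted p = 8.4e-05). Htra1, a serine protease that cuts Igfbp5, had 34.0 ± 8.02 CPM in High and 116 ± 11.0 CPM in Low (log2 -1.77, SE 0.15, adjusted p = 6.7e-07), with its highest mean in HiMed at 184 ± 13.3 CPM. The stanniocalcins Stc1 and Stc2, both inhibitors of Pappa, went opposite ways. Stc1 had 0.0363 ± 0.0628 CPM in High and 2.14 ± 0.298 CPM in Low (log2 -5.71, SE 1.10, adjusted p = 0.00084), the High value resting on 6 counts in a single library. Stc2 had 10.1 ± 2.67 CPM in High and 2.62 ± 0.853 CPM in Low (log2 1.95, SE 0.51, adjusted p = 0.0072).

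Growth hormone, which drives Igf1 in liver, acts through the receptor Ghr, the kinase Jak2 and Stat5. Of 5 genes of that axis, 2 rose and 1 fell in High against Low, beside 41.4% of all genes called. Socs2, which restrains growth hormone signalling and is itself induced by Stat5, had 26.3, 29.2 and 39.7 CPM in Low, 64.7, 48.4 and 74.2 in MedLow, 274, 207 and 263 in HiMed, and 461, 403 and 501 in High. No bins overlapped, and every step was called, with High over Low at 3.84 (log2, SE 0.19, adjusted p = 6.1e-09). Unlike Igf1, Socs2 was already high in HiMed, where Igf1 averaged 0.378 ± 0.343 CPM. Ghr stood at 49.0 ± 6.12 CPM in High and 28.7 ± 0.912 CPM in Low (log2 0.77, SE 0.11, adjusted p = 5.8e-05). Stat5b fell by 0.43 (SE 0.09, adjusted p = 0.0021), a call not made on TPM, and Jak2 and Stat5a were not called.

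Downstream of the receptors, 8 adaptor genes were tested and 3 rose and 1 fell in High against Low, near the 41.4% of all genes called. Grb14, an adaptor that binds and inhibits the insulin receptor, had 13.0 ± 3.41 CPM in High and 1.4 ± 0.887 CPM in Low (log2 3.19, SE 0.43, adjusted p = 4.6e-05). Gab1 rose by 0.59 (SE 0.09, adjusted p = 0.00012) and the Ras activator Sos1 by 0.45 (SE 0.09, adjusted p = 0.0014). Irs2, a docking protein of both receptors, fell by 0.62 (SE 0.18, adjusted p = 0.012), a call lost on TPM and without Low 1 or High 2. Of 10 genes of PI3-kinase and Akt, 3 rose and none fell, again beside 41.4% of all genes: the catalytic subunit Pik3cb to 80.8 ± 4.88 CPM in High, against 26.3 ± 1.85 CPM in Low (log2 1.62, SE 0.10, adjusted p = 2.8e-08), the regulatory subunit Pik3r3 by 0.76 and the kinase Pdpk1 by 0.25.

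The FoxO factors, which Akt holds out of the nucleus, gave 2 higher and 1 lower of 4, beside the same 41.4% of all genes called. Foxo1 fell to 38.1 ± 0.732 CPM in High, against 78.7 ± 6.19 CPM in Low (log2 -1.05, SE 0.10, adjusted p = 2.2e-06). Foxo3 (0.25, adjusted p = 0.044) and Foxo6 (0.43, adjusted p = 0.028) were called higher, and both calls were lost under other settings, 13 for Foxo3 and 5 for Foxo6. In the mTOR branch 8 of 9 genes were not called, and the activator Rheb fell by 0.53 (SE 0.12, adjusted p = 0.0025), a call not made on TPM. Igf2bp2, which binds Igf2 and other mRNAs, had 67.7 ± 5.07 CPM in High and 3.71 ± 0.636 CPM in Low (log2 4.20, SE 0.24, adjusted p = 1.5e-08), a direction opposite to that of Igf2 itself.

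**Figure D4:**
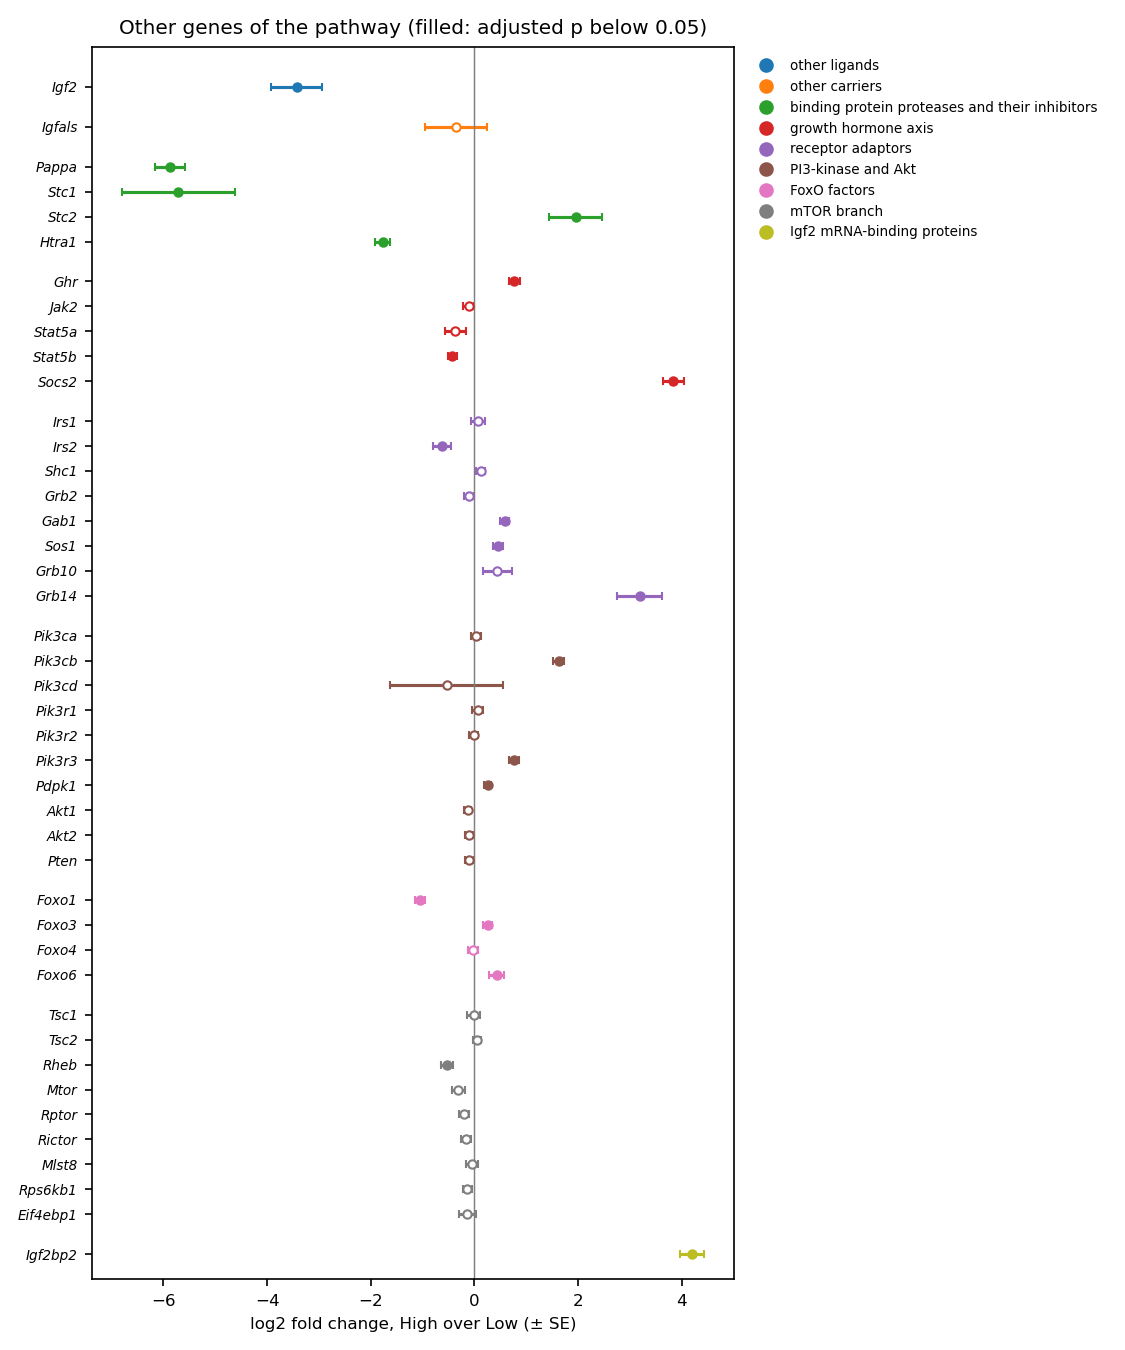
Log2 fold change of High over Low (horizontal axis, ± SE) for the 43 further pathway genes tested, coloured by role. Filled points have an adjusted p below 0.05. Igf2, Pappa and Stc1 lie far below 0, Socs2, Grb14 and Igf2bp2 far above, and the mTOR genes close to 0.

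Genes with a like pattern were ranked by Pearson's r of log2(CPM + 0.5) over the 12 libraries, among 11255 genes with a mean of at least 5 CPM in their highest bin. The points share libraries and bins, so r describes the shape over bins and carries no p. For Igf1 the leading genes were Inhbb (r = 0.9943), Adgrd1 (0.9919), Atp13a3 (0.9914), Tmco3 (0.9904) and Oprd1 (0.9881). Inhbb, the beta B subunit of activins and inhibins, averaged 24.5 CPM in Low, 22.6 in MedLow, 42.9 in HiMed, with 816 in High. Adgrd1, an adhesion receptor coupled to G proteins, had 0.186, 0.0736, 0.421 and 18.2 CPM in the same order of bins, and Oprd1, the delta opioid receptor, 1.89, 1.64, 2.17 and 35.2 CPM. High replicate 3 was the highest library for Igf1 and for each of these 5 genes, at 34.2 CPM for Igf1 and 1200 CPM for Inhbb. The 5 genes were chosen for likeness to Igf1 over these same libraries, so the shared peak follows in part from that choice.

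**Figure D5:**
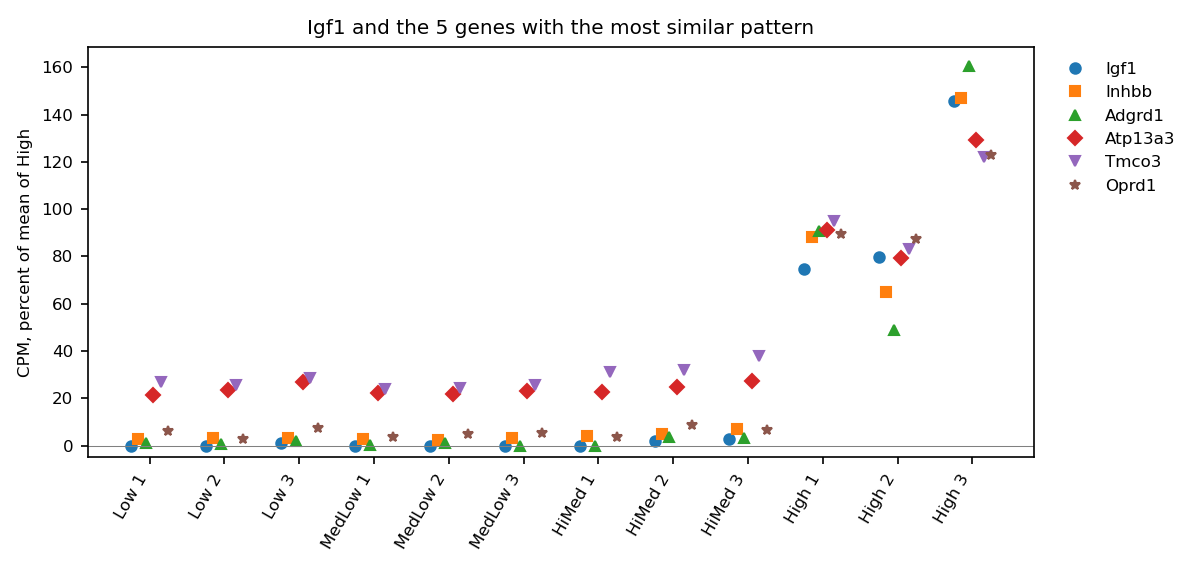
Level of Igf1 and its 5 most similar genes in each library, as percent of each gene's mean CPM in High (vertical axis, linear), in the order Low to High. All 6 genes are highest in the 3 High libraries and peak in High replicate 3, and Atp13a3 and Tmco3 keep a base level in the dimmer bins.

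Among the receptors, Igf2r was most like Irs1 (r = 0.9425), a docking protein of the insulin and Igf1 receptors, which had 31.1 ± 2.23 CPM in Low, 16.1 ± 1.55 in MedLow, 21.6 ± 4.04 in HiMed, with 32.4 ± 1.84 in High. Igf1r was most like Gna12 (0.9323), Dmpk (0.9199) and Camk2n1 (0.9158), and Insr like Pthlh (0.9784), Dusp10 (0.9753) and Ern1 (0.9732). Igf1r and Igf2r correlated with each other at r = 0.882, whereas Insr correlated with them at 0.214 and 0.219 and with Igfbp2 at -0.945. For Igfbp2 the closest genes were Serpinb10 (0.9955), Fam167a (0.9952) and Ntrk2 (0.9944), and for Igfbp3 Adarb1 (0.9969), Serpinb10 (0.9957) and Cspg4 (0.9954). Igfbp4 was closest to Ssh2 (0.9772), Gpr161 (0.9737) and Tnc (0.9731), the last a matrix glycoprotein at 184 CPM in Low, 585 in MedLow, 1270 in HiMed, with 565 in High. Igfbp5 was closest to Sncaip (0.9825), Clip2 (0.9798) and Slc19a1 (0.9754). The tight junction gene Cldn1 (0.9586), Rhbdf2 (0.9494) and Sox7 (0.9414) were closest to Igfbp6. For Igfbp7 they were the fibroblast growth factor receptor Fgfr3 (0.9951), Trp73 (0.9903) and Olfml2a (0.9896). Fgfr3, at 498, 481, 461 and 109 CPM in Low, MedLow, HiMed and High, shows the same drop in High alone. Igf1 and Igfbp7 ran opposite ways over the libraries, at r = -0.988.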

How the data were processed

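Polyadenylated RNA of sorted cells was made into libraries with a NuGen kit and sequenced on a NovaSeq, per the labels' protocols. Per the submitters' processing notes, Salmon 1.4.0, DESeq2 1.28.1 and the build mm39 were used. Which did what, the annotation and any strand setting is not given in the sources used here. Deposited expected counts per gene symbol were unscaled, and 8.24 to 13.0% of values in a library were not whole (tolerance 1e-06). The deposited TPM values, scaled by the authors for length and to a common total, were used as they stand.

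Expected counts were rounded and analysed in R 4.3.3 with edgeR 4.0.16. The edgeR filter on low counts (minimum count 10) left 17432 genes, and the 35238 symbols left out held 0.034% of counts. Libraries were scaled by TMM, and all 12 libraries entered a single quasi-likelihood fit with a coefficient for each bin (common biological coefficient of variation 0.366). The 6 comparisons between bins and the test among the 4 bins were each adjusted over all genes tested by Benjamini-Hochberg. CPM are TMM-scaled. A standard error is what the F statistic implies. The model was tested on simulated counts.

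The 10 genes, the pathway and marker lists and the rule for naming genes were chosen with earlier results of these data known, among them the change of Igf1 between High and HiMed. The rule names all 10, up to 4 called genes with the largest High against Low change per pathway role, every untested pathway gene, and the most similar genes (5 for Igf1, 3 for the rest); Fbln1, Dcn and other markers and Jak2, Stat5a and Igfals were named beside it. The pathway list is given without an item that is not reported here. Floors are 3 counts over a bin (0.0284 CPM in Low, 0.0254 in MedLow, 0.0223 in HiMed, 0.0200 in High) and cover counting error only. Libraries of a bin differed beyond sampling noise (chi-square per degree of freedom 27.5 to 92.4).

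In the series' description each replicate is a pool of mice that was then sorted, so equal replicate numbers were taken to pair libraries. The main fit held no term for this pairing, which entered only as the replicate block. Over 9650 genes, deviations from bin means correlated at 0.0765 to 0.364 in 18 same-number pairs, 16 of them over 0.1, and at -0.296 to 0.0536 in 36 others. Deviations within a bin sum to 0, so positive same-number values tend to bring negative values in the others. The values of the others are thus no separate support for the pairing. Alternatives were other scalings, filters, DESeq2 1.42.0, limma-voom and log2(TPM + 1 or 0.1) in limma 3.58.1, a replicate block, only the 6 libraries compared, and leaving out each library.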

Additional observations from a re-analysis of the deposited data

How the results depend on the processing

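Over all alternatives, the test among the 4 bins called all 10 genes and High against Low called 7. Of 1317 recomputed fold changes of single genes, 1217 kept direction and side of the threshold, 73 lost and 15 gained a call, and 12 turned sign or went to 0, none of them called in the first place. The number of genes called in High against HiMed was 8, against 5 with TPM + 0.1 and with only the 6 libraries compared, and 5 to 8 with a library left out (5 without High replicate 3). In HiMed against Low it was 5, and 5 to 8 (8 without HiMed replicate 1). In HiMed against MedLow it was 5, against 3 with TPM + 1 and TPM + 0.1, and 3 to 5 with a library left out (3 without MedLow 2, HiMed 2 or HiMed 3). In MedLow against Low it was 7, against 3 with TPM + 1 and TPM + 0.1, and 2 to 7 (2 to 4 without any Low or MedLow library, 2 without Low 2). High against MedLow gave 9 with every library left out. Signs turned for Igf1r in High against Low (-0.047 to 0.185 with a library left out), for Igfbp4 in High against MedLow (-0.057 to 0.267), for Igf1 in MedLow against Low (-5.386 to 0, without Low 3) and for Igfbp7 in HiMed against Low (-0.096 to 0.037; 0.026 with library size only, 0.047 with TPM + 1 and 0.048 with TPM + 0.1). Igfbp7 in HiMed against MedLow was 0.003 with TPM + 1 and TPM + 0.1. The cause was not tested. The replicate block gave 9 calls in High against HiMed and 6 in HiMed against MedLow, both through Insr, and changed no other call of the 10 genes. Over all genes, TPM + 1 gave 4355 higher and 2158 lower in High against Low, where the counts gave 3512 and 3702, and put the median log2 fold change of all genes at 0.137, to which changes on that scale are relative. The balance moved likewise in High against MedLow (4151 higher and 1764 lower with a median of 0.146, where the counts gave 3167 and 3454), High against HiMed (2104 and 1071, where the counts gave 1840 and 2018) and HiMed against MedLow (1103 and 423, where the counts gave 1286 and 1066). All genes called in High against HiMed numbered 3858, against 3058 with TPM + 0.1, 2816 with only the 6 libraries compared and 2749 without High 3. In HiMed against Low they numbered 4120, against 3701 without HiMed 1, where more of the 10 genes were called. All genes called in HiMed against MedLow numbered 2352, against 1526 with TPM + 1, 1512 with TPM + 0.1 and 1370 without MedLow 2, and in MedLow against Low 1151, against 704 and 663 with TPM and 677 to 750 without Low 1, Low 3, MedLow 1 or MedLow 3. With 3 libraries a bin, differences such as those of Igf1 below High rest on 8 and 54 counts.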
